A study of Drosophila melanogaster with 16 samples.

Results

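The translation initiation factor (eIF) and translation elongation factor (eEF) genes of Drosophila were examined in S2 cells, an established embryonic line with features of macrophage-like blood cells. Members were all genes of the deposited count table whose FlyBase symbol begins with eIF or eEF, and 52 of 17737 genes met that rule. Every one of them is annotated as protein coding. By role, 16 belong to the eIF3 scaffold (with 3 gene copies), 13 to cap binding and the helicase step, 9 to start codon choice and the ternary complex, 8 to elongation, 5 to the exchange factor eIF2B and 1, eIF6, to joining of the large ribosomal subunit.

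The study asked how PARP1, the nuclear enzyme that builds poly(ADP-ribose), and its catalytic activity affect RNA in these cells, using RNA-seq of total RNA. All 5 groups were S2 cells: one set, labelled December, held 3 WT libraries, 3 of cells given 10 µM of the inhibitor PJ34 for 16 h (PARPi) and 3 of siRNA knockdown of PARP1 (KD), and a set labelled October held 3 of WT and 4 of KD. The labels give a month and no genetic background beyond the line, and they name no control siRNA or solvent control beside WT. The study calls its sequencing experiments independent, but nothing in the labels says which libraries came from separate cultures, so p-values measure the spread between these libraries. Parp1 itself was at 159 to 181 CPM (counts per 1000000 counts of a library, after TMM scaling of the library sizes) in WT and 137 to 167 CPM in the libraries labelled KD of December. In October it was at 77.6 to 95.3 CPM in WT and 76.3 to 87.9 CPM in KD. Its log2 fold changes in KD were -0.14 ± 0.0765 (SE) in December and -0.15 ± 0.0645 in October, with adjusted p = 0.320 and 0.0962 by edgeR. The mRNA thus fell in neither month by this test, while the study describes a western blot check of PARP1 protein depletion, which is not part of the deposited counts. Every direction below rests on the labels, with KD standing for the libraries so labelled.

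Translation begins when eIF2, loaded with GTP and the initiator tRNA, joins the small ribosomal subunit together with eIF1, eIF1A, eIF5 and the large scaffold eIF3. eIF4E binds the mRNA cap, eIF4G bridges the cap to eIF3, and the helicase eIF4A opens the leader. eIF2B recharges eIF2 with GTP and is the point at which stress kinases slow initiation. In elongation eEF1alpha brings aminoacyl-tRNA to the ribosome, and the complex of eEF1beta, eEF1gamma and eEF1delta recharges it. eEF2 moves the ribosome along, and eEF5 (eIF5A in vertebrates) relieves stalls at difficult peptides. In flies and vertebrates many mRNAs of the translation apparatus are themselves controlled together by growth signalling.

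Libraries held between 58531662 and 90439074 counts, with 77671859 or more in December and up to 78807134 in October. Of the defining hemocyte markers, 8 of 8 had counts in every group, with a summed level of 775 to 968 CPM in December and 506 to 529 CPM in October. A count in 1 library of a group was enough for this, so it does not show that all 8 were expressed. NimC1 was measured poorly: the SE of its log2 fold change in KD of December was 0.888, beside 0.0748 for srp. Within that list Hml, a hemocyte clotting gene, was at 261 to 338 CPM in WT of December and 15.2 to 19.5 CPM in WT of October, and 3 of the 8 markers were called higher and 4 lower in October. Markers also moved with KD: in December Hml (log2 fold change -0.40) and He, a hemocyte surface protein (-0.74), were lower, with edgeR adjusted p of 0.00619 and 0.00578. In October He was lower (-1.38, edgeR adjusted p = 1.59e-09) and ush, a cofactor of the blood cell GATA factor, higher (0.36, 1.53e-05), while the other 6 markers in each month were not called. The part of these markers in the values below was not tested. Summed markers of muscle and of fat body were at most 0.908 and 0.0747 CPM in any library, the germline pair at most 1.16 CPM and the ovarian somatic marker tj at most 0.0231 CPM. The neuronal pair, carried by elav, lay between 25.2 and 30.3 CPM in December and 37.7 and 43.5 CPM in October. The mitochondrial large ribosomal RNA, mt:lrRNA, took 7.89 to 10.8% of counts in December. In October it took 9.84 to 12.4% in WT and 15.3 to 17.1% in KD, without overlap.

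Translation factors took a few percent of each library, and a large part of that was 1 gene. The 52 members together held 3.06 to 3.47% of counts in December and 2.24 to 2.55% in October. Among these counts, 24.9 to 29.3% fell on eEF1alpha1 (FBgn0284245, at 11891135 to 11895762 on the plus strand of chromosome 2R in the Ensembl annotation of BDGP6). In WT of December 44 members had a mean of at least 1 CPM and 30 of at least 100 CPM. At least 10 counts in total, the limit for testing, were reached by 48 members in December and 49 in October.

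Per kilobase of exon, elongation factors led the WT December libraries. eEF5 stood at 4258 ± 267 CPM per kb (mean ± SD, n = 3) and eEF1alpha1 at 3510 ± 69.8 CPM per kb. They were followed by the start codon factor eIF1 at 1970 ± 129 CPM per kb, eEF1beta at 1676 ± 168, eEF2 at 1453 ± 26.8, eEF1gamma at 1186 ± 33.7 and the helicase eIF4A at 912 ± 31.9 CPM per kb. Thus 5 elongation factors, eIF1 and eIF4A held the first 7 places, and among them only eIF1 and eEF1beta had overlapping ranges of mean ± SD.

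The 13 subunits of the eIF3 scaffold at 1 CPM or more kept close together, from 109 CPM per kb for eIF3a to 521 CPM per kb for eIF3g1, a range of 4.77-fold around a median of 269 CPM per kb. Within it eIF3k (491 ± 33.5 CPM per kb) and eIF3f1 (490 ± 46.6 CPM per kb) could not be told apart. The 5 genes of eIF2B, whose protein acts as a catalyst, lay far lower, from 14.3 to 30.5 CPM per kb, and did not overlap with any of those 13. The cap-binding protein eIF4E1 stood at 115.3 ± 2.65 CPM per kb and its relative eIF4EHP, which binds the cap but not eIF4G and represses the mRNA it binds, at 8.09 ± 0.273 CPM per kb. eIF6, which keeps free large subunits from joining too early, was at 73.1 ± 7.67 CPM per kb. eIF5, the GTPase activator of eIF2, was at only 3.77 ± 0.152 CPM per kb. Its exons share 80.8% of their bases with CG46312 on the same strand, a gene at 0 counts in every library, so how reads of eIF5 were counted is uncertain.

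**Figure D1:**
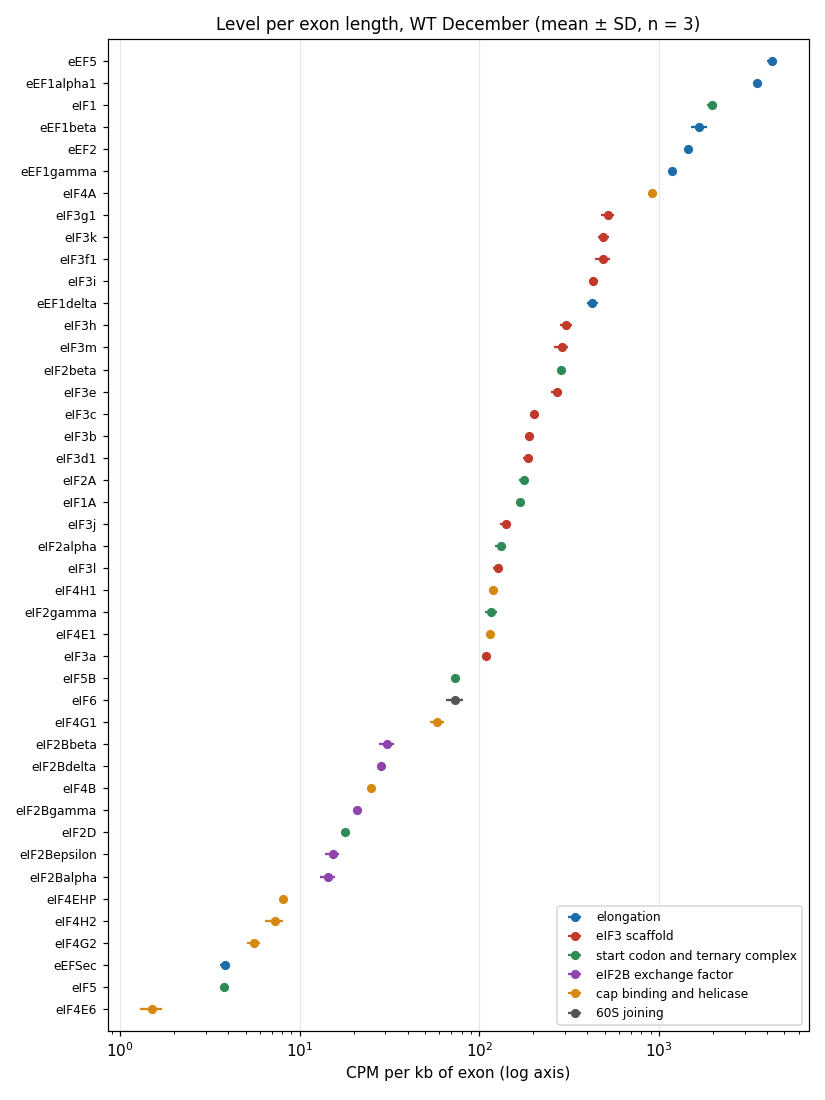
Level of each translation factor gene with at least 1 CPM in WT December, as CPM per kb of exon on a log axis. Points are means and bars are SD over 3 libraries, coloured by role. Elongation factors and eIF1 hold the top 6 places, and the eIF2B genes lie at 14.3 to 30.5 CPM per kb, below every eIF3 subunit shown.

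For eEF1alpha, eIF3d, eIF3f and eIF3g, each with a pair of genes, reads fell almost wholly on 1 gene of the pair. eEF1alpha1 had 339676 to 880257 reads per library and eEF1alpha2 27 to 83 reads. Per kilobase that was 3510 ± 69.8 against 0.210 ± 0.0759 CPM per kb in WT of December (n = 3). The copies eIF3d2, eIF3f2 and eIF3g2 had 39, 122 and 4 reads over all 16 libraries, while eIF3d1, eIF3f1 and eIF3g1 had 444997, 683183 and 528525. Reads that match both members of a pair could be assigned to neither or either, since the sources used here do not state how multiple matches were treated.

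The cap-binding family was spread over more genes. In WT of December eIF4E1 stood at 115.3 and eIF4EHP at 8.09 CPM per kb, as given above. eIF4E1 had 15496 to 25800 reads per library and eIF4EHP 4076 to 6631. eIF4E6 had 67 to 192 reads per library. Over all 16 libraries eIF4E7 had 60 reads, eIF4E3 20, eIF4E4 12 and eIF4E5 8. The last 4, like eIF3d2 and eIF3g2, were too scarce for a level: a library with no read allows up to 3 counts, or 0.0332 to 0.0513 CPM. A range of 43.5 to 71.9 CPM was found for eIF4G2, a form known from spermatogenesis, and of 343 to 438 CPM for eIF4G1.

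**Figure D2:**
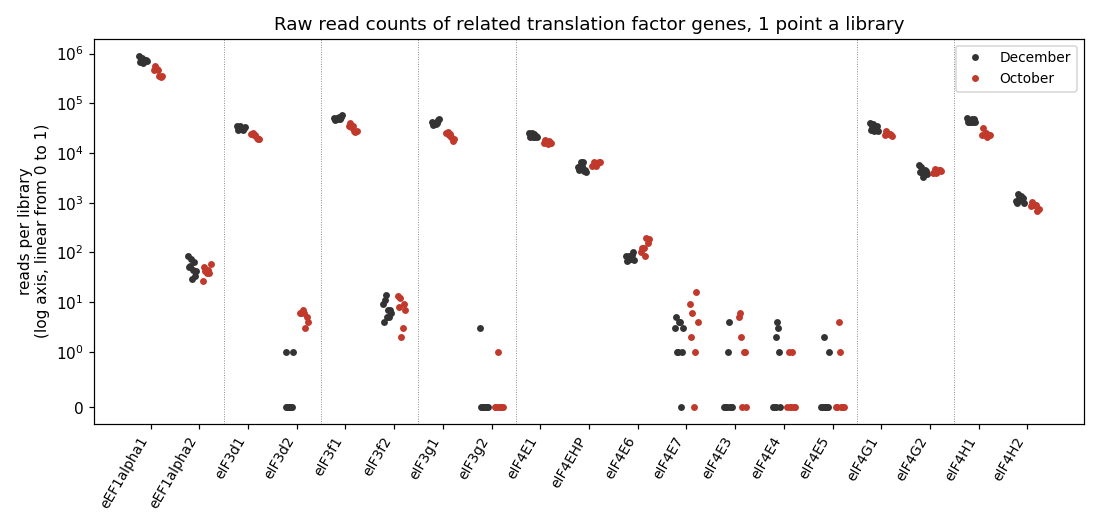
Raw reads per library for related translation factor genes, 1 point a library, with December in black and October in red on an axis that is logarithmic above 1. eEF1alpha1 reaches 880257 reads where eEF1alpha2 has at most 83, and the eIF3d2, eIF3g2, eIF4E3, eIF4E4 and eIF4E5 points lie at 7 reads or fewer.

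The first comparison asked what blocking PARylation did to these mRNAs. In PARPi 1 of 48 tested members rose, eIF4EHP (FBgn0053100, at 24063077 to 24108960 on the minus strand of chromosome 3R), against 0.290% of all genes called by edgeR's quasi-likelihood test. It stood at 53.9, 51.5 and 50.4 CPM in the WT libraries and at 73.7, 70.8 and 75.3 CPM in PARPi. All PARPi libraries lay above all WT libraries, with a log2 fold change of 0.50 ± 0.0658 (SE), a rise of 41.0%, at adjusted p = 0.00175. The call held in all 17 alternative settings and subsets of libraries. In bulk libraries such as these, a change in the share of cells that hold an mRNA and a change in its amount per cell cannot be told apart. eIF4EHP shares 6.97% of its exon bases with Syx1A on the same strand, so a part of its reads may have been counted for neither.

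The other 47 tested members did not pass in PARPi, and their median over all 48 was 0.02 on the log2 scale, beside -0.01 for all genes tested. eIF1, which guards the choice of start codon, was at 1241, 1382 and 1402 CPM in WT and 980, 1200 and 1187 CPM in PARPi. Its groups did not overlap, yet the log2 fold change of -0.26 ± 0.0900 had adjusted p = 0.245 in edgeR. Libraries of PARPi lay entirely above WT for 5 of the 48 members and entirely below for 4, against 8.09% and 6.93% of all genes. eEF1alpha1 (log2 fold change 0.01 ± 0.0803) and eEF2 (-0.12 ± 0.0758) had adjusted p of 0.988 and 0.578. The 24 tested regulators of translation hold the 4E-BP Thor, the eIF2alpha kinases and the mTor pathway. Of these edgeR called 0, beside 0.290% of all genes, and DESeq2 called 1. An unadjusted p under 0.05 in edgeR was reached by 5 of the 24, beside 1361 of 11729 genes.

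In the libraries labelled KD of December 5 members fell: eIF1, eEF5, eIF3m, eEF1beta and eIF3g1. These are 5 of 48 tested, 10.4% beside 7.73% of all genes called in either direction with 5.65% lower and 2.08% higher, so the share is not far from the background. None of the 48 rose in edgeR. An unadjusted p under 0.05 in edgeR was reached by 12 of them, beside 2366 of 11729 genes tested. DESeq2 called 8 lower and likewise none higher, 16.7% beside 9.4% of all genes by that tool. The median of the members was -0.07 on the log2 scale, beside 0.01 for all genes tested. A negative value was found for 35 of 48 members, beside 5508 of 11729 genes.

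eIF1 (FBgn0035423, at 3223341 to 3224650 on the plus strand of chromosome 3L) had the largest of these falls and the only call that all 17 alternatives kept. In KD it was at 867, 1077 and 969 CPM, all under the 1241 to 1402 CPM of WT. Its log2 fold change was -0.47 ± 0.0901 with adjusted p = 0.00346 by edgeR. eEF5, which eases ribosome stalls, was at 3232, 3415 and 3662 CPM in WT and 2415, 2983 and 2602 CPM in KD. KD again lay wholly below WT, by -0.37 ± 0.0931 on the log2 scale (edgeR adjusted p = 0.0172).

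eIF3m, a subunit of the scaffold that budding yeast lacks (FBgn0033902, at 14163066 to 14164825 on the minus strand of chromosome 2R), was at 425, 439 and 504 CPM in WT and 344, 380 and 358 CPM in KD. Its groups did not overlap and its log2 fold change was -0.34 ± 0.0764 (edgeR adjusted p = 0.00806). eEF1beta fell by 0.30 ± 0.0834 on the log2 scale, from a mean of 1609 ± 162 CPM to 1309 ± 60.7 (SD, n = 3 each, edgeR adjusted p = 0.0293). For eIF3g1, a subunit with an RNA-binding domain, the means were 535 ± 45.7 CPM in WT and 442 ± 8.94 in KD, and the log2 fold change was -0.28 ± 0.0717 (edgeR adjusted p = 0.0191). WT replicate 3 was the highest WT library for all 5 genes that fell. Without it, or without KD replicate 1 or 3, eIF1 was the 1 call left, and without WT replicate 2 there were 2 calls.

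KD libraries lay entirely below WT for 15 of 48 members and entirely above for 2, beside 12.5% of all genes in each direction. The 15 held 7 eIF3 subunits (e, f1, g1, h, i, k and m), eEF1beta, eEF2, eEF5, eIF1, eIF2A, eIF4A, eIF5 and eIF5B, and the 2 above were eIF4E1 and eIF4EHP. eIF4E1 was at 252 to 264 CPM in WT and 266 to 271 CPM in KD, with a log2 fold change of 0.06 ± 0.0618 that did not pass (edgeR adjusted p = 0.676). eEF1alpha1, at 8502 to 8839 CPM in WT and 8324 to 9117 CPM in KD, had a log2 fold change of 0.01 ± 0.0803. For eEF2 it was -0.07 ± 0.0758, and the libraries did not overlap (4360 to 4524 CPM in WT and 4117 to 4356 CPM in KD). The difference of eEF2 did not pass the test (edgeR adjusted p = 0.671).

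The calls of eIF3 subunits in December depended on the scale. Of 14 tested 2 were called lower, beside 5.65% of all genes, and 13 lay below the median of all genes. When libraries were scaled by their totals without the 20 most abundant genes, the median of all genes moved to 0.14 on the log2 scale from 0.01. The members called were then eIF1 (-0.34) and eEF5 (-0.24) as lower and eIF4EHP (0.28) and eIF4G2 (0.29) as higher, with no eIF3 subunit called, and calls over all genes split into 1024 higher and 271 lower instead of 244 and 663. A change of scale moves all genes by nearly the same amount, so which side of the median a gene takes says nothing on the scale. Of the 14 subunits 13 lay below the moved median as before.

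Of the 24 regulators 1 rose in KD of December, beside 2.08% of all genes. It was larp, which binds mRNAs with a 5' pyrimidine tract such as those of ribosomal proteins. Its log2 fold change was 0.24 ± 0.0656 (edgeR adjusted p = 0.0254). Ribosomal protein genes, counted alongside, were lower for 42 of 89 tested, beside 5.65% of all genes, with a median of -0.28 on the log2 scale.

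**Figure D3:**
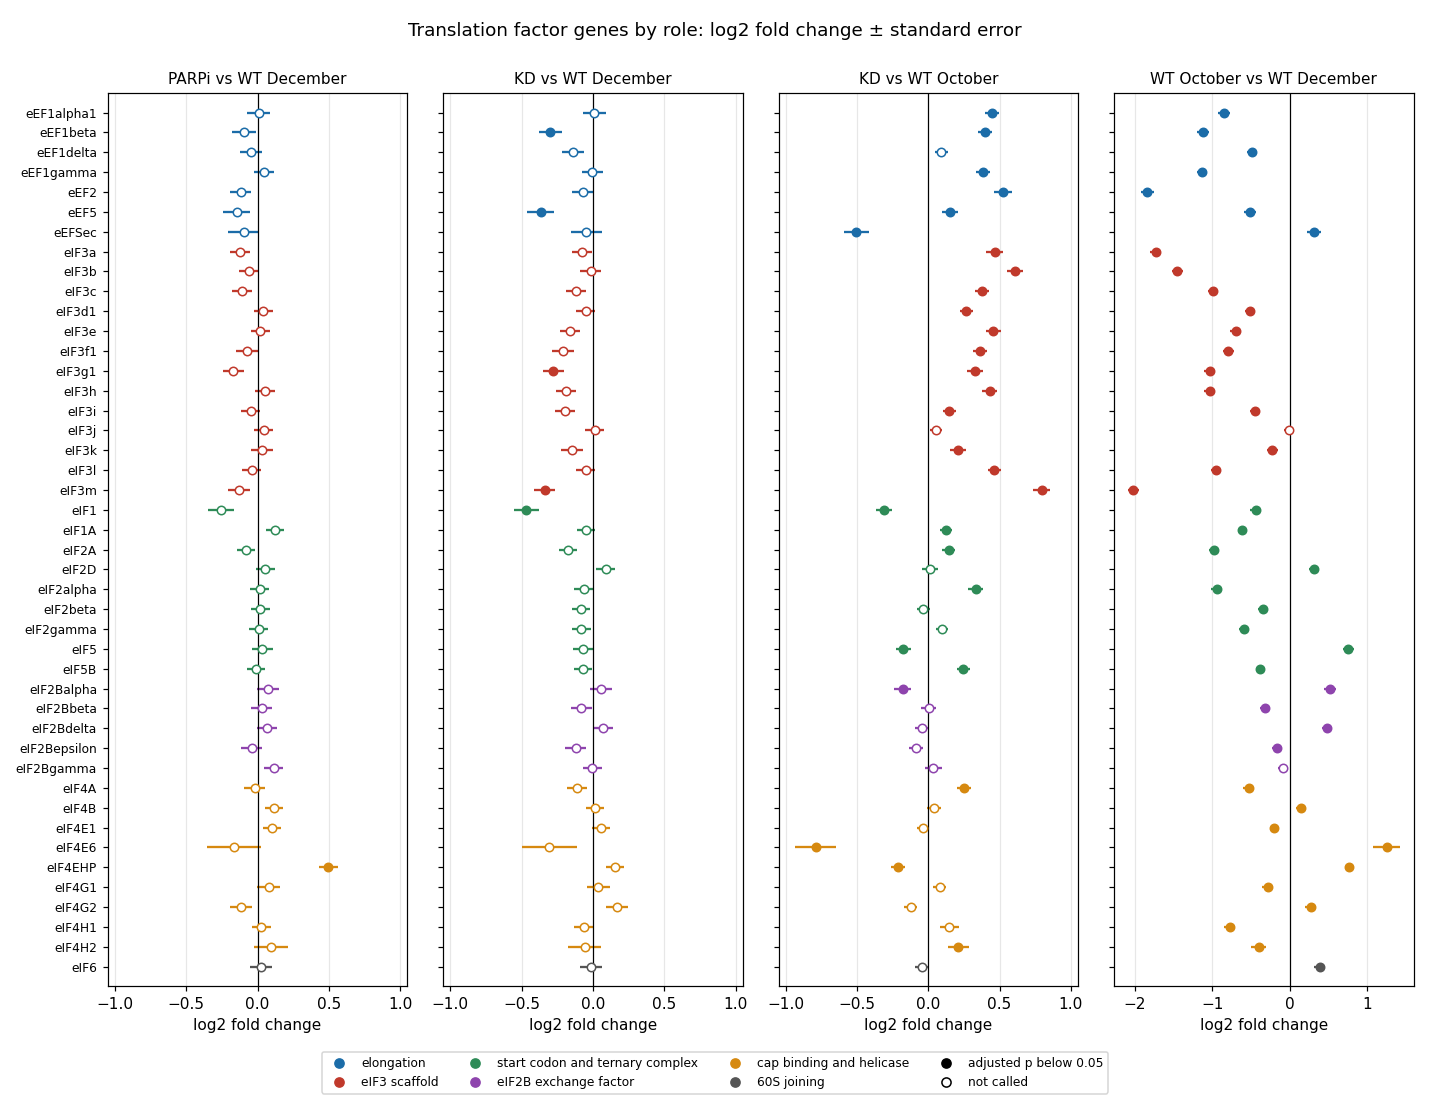
Log2 fold change ± SE of each translation factor gene with at least 1 CPM, coloured by role, in 4 comparisons. Filled points have an adjusted p below 0.05 and the last panel has a wider axis. PARPi has 1 filled point (eIF4EHP at 0.50) and KD December 5, all negative. KD October has 12 filled positive eIF3 points, and WT October vs WT December shows eIF3m at -2.02 and eEF2 at -1.84.

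In October most members differed between KD and WT, and most were higher. Of 49 tested, 23 rose and 6 fell, a share of 59.2% called beside 27.8% of all genes, 13.8% of which rose and 14.0% fell. The median of the members was 0.15 on the log2 scale, beside 0.01 for all genes tested. KD libraries lay entirely above WT for 25 members and entirely below for 8, beside 16.3% and 16.7% of all genes.

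The eIF3 scaffold rose most broadly, with 12 of 15 tested members called higher and a median of 0.40. All 15 values were positive, beside 51.7% of all genes tested. The 15 include the scarce copies eIF3d2 (0.57 ± 0.708) and eIF3f2 (0.40 ± 0.686), and the median is the value of eIF3f2. eIF3m led again, now upward. It was at 140, 121 and 125 CPM in WT and 243, 222, 209 and 220 CPM in KD, with a log2 fold change of 0.79 ± 0.0578 (edgeR adjusted p = 4.43e-09). eIF3b, part of the core that holds the scaffold to the small subunit, went from 214 ± 9.76 CPM (n = 3) to 326 ± 22.7 CPM (n = 4), a log2 fold change of 0.61 ± 0.0544 (edgeR adjusted p = 6.80e-08). All KD libraries of both genes lay above all WT libraries.

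eIF3a, its partner in that core, rose by 0.47 ± 0.0591 on the log2 scale, from 163, 136 and 140 CPM to 219, 196, 196 and 198 CPM (edgeR adjusted p = 5.93e-06). eIF3l rose by 0.46 ± 0.0475, eIF3e by 0.46 ± 0.0520 and eIF3h by 0.43 ± 0.0536. Smaller rises were called for eIF3c (0.38), eIF3f1 (0.36), eIF3g1 (0.33), eIF3d1 (0.26), eIF3k (0.21) and eIF3i (0.15). Only eIF3i and eIF3k among the 12 lost the call in any alternative. eIF3j, a loosely bound subunit, was not called, and the scarce copies eIF3d2 and eIF3f2 were not either.

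Elongation factors followed, with 5 of 8 higher and 1 lower. eEF2 was at 1605, 1309 and 1338 CPM in WT and 2160, 1955, 1963 and 2053 CPM in KD, a log2 fold change of 0.52 ± 0.0633 (edgeR adjusted p = 3.50e-06). eEF1alpha1 went from 5362, 5446 and 5695 CPM to 7481, 7689, 7338 and 7453 CPM, a log2 fold change of 0.45 ± 0.0493 (edgeR adjusted p = 1.09e-06). The groups of both genes were fully apart. Of the complex that recharges eEF1alpha, eEF1beta (0.40 ± 0.0488) and eEF1gamma (0.39 ± 0.0493) rose with them, while eEF1delta was not called. eEF5 rose by 0.15 ± 0.0534 (edgeR adjusted p = 0.0379), a call lost in 7 of 13 alternatives.

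eEFSec, the factor that delivers selenocysteine, moved the other way. It was at 8.14, 8.93 and 9.42 CPM in WT and 5.995, 6.21, 7.11 and 5.58 CPM in KD, lower by a log2 fold change of -0.50 ± 0.0902 (edgeR adjusted p = 0.000253). The low copy eIF4E6, at 2.52 to 2.999 CPM in WT and 1.35 to 1.86 CPM in KD, fell by 0.79 ± 0.145 on the log2 scale (edgeR adjusted p = 0.000325). Both groups were again apart, at levels of a few CPM.

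eIF1 was lower in KD of October as in KD of December. It was at 1190, 1136 and 1072 CPM in WT and 831, 960, 953 and 912 CPM in KD, a log2 fold change of -0.31 ± 0.0548 (edgeR adjusted p = 0.000229). It was the only member called lower in both months, and no alternative removed either call. The share of all genes called lower in both months was not computed. eIF4EHP fell by 0.21 ± 0.0472 from 95.7, 104 and 104 CPM to 86.2, 91.4, 85.0 and 86.9 CPM (edgeR adjusted p = 0.00185). The falls of eIF2Balpha (-0.18 ± 0.0565) and eIF5 (-0.17 ± 0.0551) were smaller and were lost in 4 and 3 of 13 alternatives.

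For cap binding, eIF4A rose by 0.25 ± 0.0498 and eIF4H2 by 0.21 ± 0.0731, and eIF4E1 was not called (256 to 258 CPM in WT, 243 to 254 CPM in KD, log2 fold change -0.04 ± 0.0432, edgeR adjusted p = 0.577). Among start codon factors eIF2alpha, the subunit that stress kinases phosphorylate, rose by 0.33 ± 0.0498, eIF5B by 0.25 ± 0.0463, eIF2A by 0.14 ± 0.0464 and eIF1A by 0.12 ± 0.0428. eIF2beta and eIF2gamma were not called.

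The share of mt:lrRNA was higher in every KD library of October than in every WT library, as given above. With totals that leave out the 20 most abundant genes, 17 members were higher and 8 lower, including 10 eIF3 subunits higher, while all genes split into 993 higher and 2660 lower instead of 1665 and 1699. All 15 tested eIF3 members lay above the median of all genes, a position that a change of scale leaves nearly fixed for every gene.

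Regulators changed in both directions in October. Of 24 tested, 6 rose and 4 fell, beside 13.8% and 14.0% of all genes. Thor, the 4E-BP that sequesters eIF4E, was at 402, 337 and 367 CPM in WT and 248, 224, 233 and 234 CPM in KD, a log2 fold change of -0.65 ± 0.0548 (edgeR adjusted p = 3.11e-08). Also lower were PPP1R15, which helps remove the phosphate of eIF2alpha (-0.30), Paip2, an inhibitor of the poly(A)-binding protein (-0.26), and Rheb, an activator of mTor (-0.18). Higher were pix, which recycles ribosomes (0.47), raptor (0.38), Tsc1 (0.36), eRF1 (0.19), mTor (0.18) and larp (0.15). With totals that leave out the 20 top genes, the list split into 2 higher and 6 lower. Ribosomal protein genes were higher for 64 of 90 tested and lower for 3, beside 13.8% and 14.0% of all genes.

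**Figure D4:**
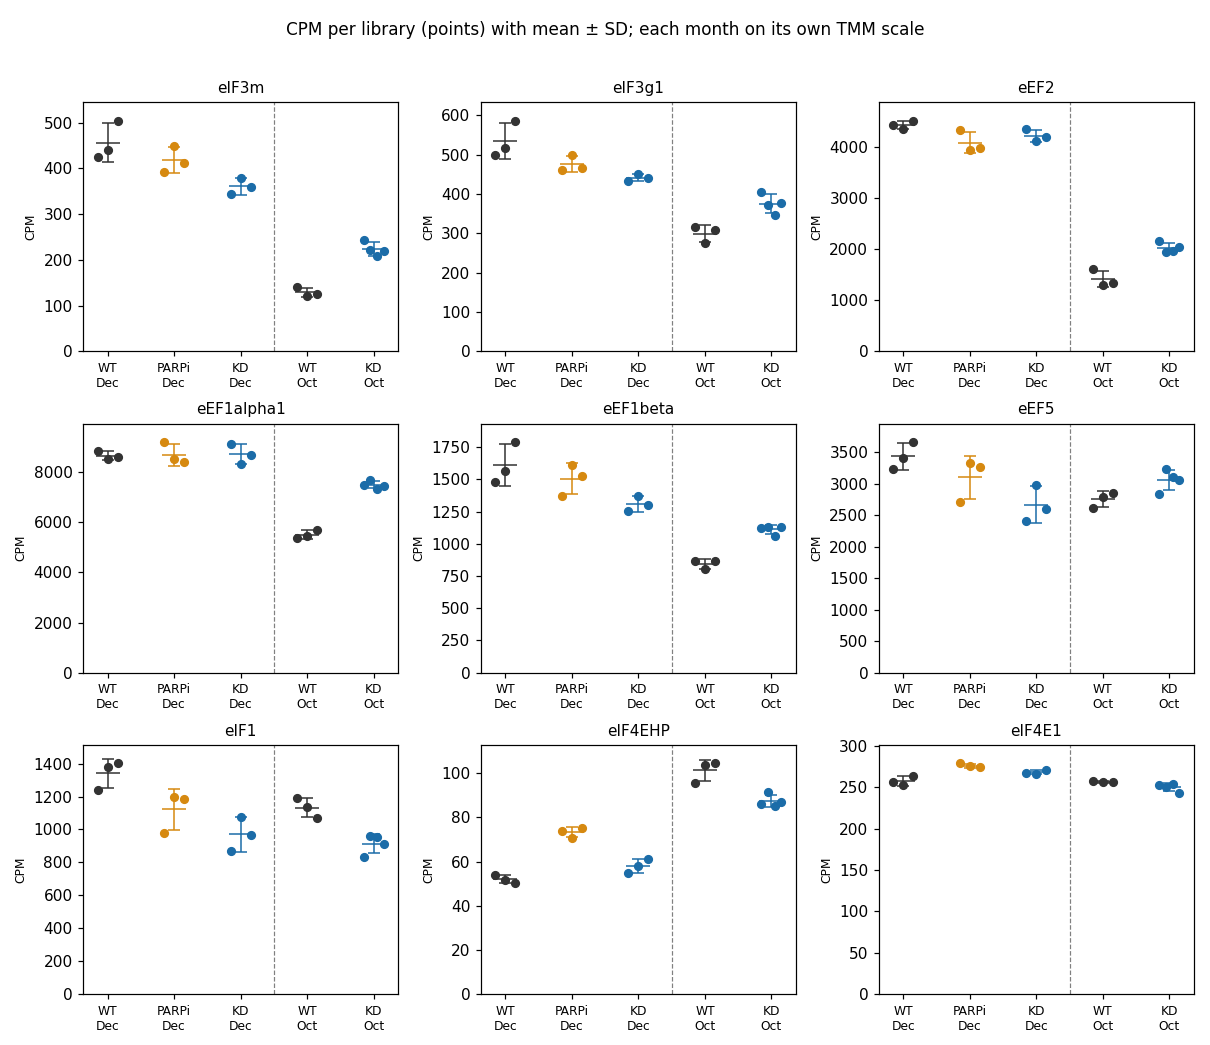
CPM in every library for 9 translation factor genes, with mean and SD as a cross bar and whiskers, on axes that start at 0. Each month was scaled on its own, so levels are compared within a month. eIF3m in KD is below WT in December (344 to 380 against 425 to 504 CPM) and above WT in October (209 to 243 against 121 to 140 CPM). eIF1 is below WT in KD of both months, and eIF4EHP is highest in PARPi among December groups.

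The change between KD and WT therefore differed between the months for many members, and this was tested as an interaction over the 13 WT and KD libraries. Of 49 members tested 24 differed, 49.0% beside 14.1% of all genes. The KD change was more negative in December than in October for 21 members (8.33% of all genes) and more positive for 3 (5.77% of all genes). The eIF3 scaffold held 12 of the 21. eIF3m had the largest difference, -1.15 ± 0.0964 on the log2 scale (December change minus October change, edgeR adjusted p = 1.27e-09). eEF1beta followed with -0.71 ± 0.0896, eIF3b with -0.64 ± 0.0883, eIF3h with -0.64 ± 0.0865 and eIF3e with -0.63 ± 0.0843. These 5 were called under every alternative.

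eEF2 differed by -0.61 ± 0.0962 and eEF1alpha1 by -0.45 ± 0.0830 between the months. The other direction was taken by eEFSec (0.44 ± 0.135, edgeR adjusted p = 0.0267), eIF4EHP (0.35 ± 0.0780, 0.00223) and eIF4G2 (0.28 ± 0.0899, 0.0361). The calls of eEFSec and eIF4G2 were lost when single libraries were left out, in 4 and 6 of 13 cases. For eIF1 the difference was -0.17 ± 0.0982 with adjusted p = 0.268, so a difference between its falls in both months was not shown. eIF3m, eEF1beta, eEF5 and eIF3g1 were called lower in December and higher in October. The share of all genes with such a pair of calls was not computed.

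Scaling moved these counts in 1 direction. With totals that leave out the 20 top genes the median of all genes rose to 0.18 from -0.03, the members called were 9 higher and 13 lower, and all genes split into 2651 higher and 362 lower instead of 730 and 1054. All 15 tested eIF3 members lay below the median of all genes, which a change of scale could hardly alter, since it moves all genes nearly alike. Among regulators Thor (0.80 ± 0.0984), Paip2 (0.42) and PPP1R15 (0.34) had a more positive KD change in December, and pix (-0.58), raptor (-0.49) and Tsc1 (-0.39) a more negative one. Of 90 ribosomal protein genes 80 had a more negative change in December, beside 8.33% of all genes.

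WT libraries of the 2 months were also set against each other, since both sets serve as controls. A month cannot be told apart here from anything else that differed between these sets. Of 48 members tested 44 differed, 12 higher and 32 lower in October, beside 65.5% of all genes (32.4% higher and 33.0% lower). Libraries of the months were fully apart for 43 members, with October above for 11 and below for 32, against 35.4% and 34.6% of all genes.

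The largest falls were those of eIF3m, eEF2, eIF3a, eIF3b and eEF1gamma. On a scale common to the 6 libraries eIF3m was at 462, 471 and 539 CPM in December and 132, 114 and 118 CPM in October, a log2 fold change of -2.02 ± 0.0762 (edgeR adjusted p = 2.04e-14). eEF2 went from 4817, 4682 and 4836 CPM to 1510, 1232 and 1260 CPM, a log2 fold change of -1.84 ± 0.0838 (edgeR adjusted p = 2.47e-13). Both lay far beyond the spread of either set. The values were -1.73 ± 0.0733 for eIF3a, -1.45 ± 0.0667 for eIF3b and -1.13 ± 0.0690 for eEF1gamma, and -0.85 ± 0.0757 for eEF1alpha1.

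Of the 15 tested eIF3 members 12 were lower in October, with eIF3j not called. The factors that were higher in October sat mostly at low levels. eIF4E6 rose by 1.25 ± 0.171, from 0.926 to 1.24 CPM in December to 2.37 to 2.82 CPM in October. eIF4EHP rose by 0.77 ± 0.0621, from 58.5, 55.4 and 53.9 CPM to 90.1, 97.7 and 98.4 CPM (edgeR adjusted p = 1.00e-09). eIF5 (0.76 ± 0.0685), eIF2Balpha (0.52 ± 0.0747) and eIF2Bdelta (0.48 ± 0.0592) were higher too, with no overlap of libraries. eIF3d2 and eIF4E7 were also called higher, from 1 and 4 reads over the December set to 12 and 21 over the October set, and lost the call when WT December replicate 1 or 2 was left out. Of the 21 reads of eIF4E7, 16 lay in 1 library. eIF4E1 was at 271 to 282 CPM in December and 241 to 243 CPM in October, a log2 fold change of -0.20 ± 0.0596 that became 0.18 with totals that leave out the 20 top genes.

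Within eIF2B the subunits did not move as 1 group: alpha and delta were higher, beta and epsilon lower and gamma was not called. That direction depended on the scale, since with totals that leave out the 20 top genes beta was at 0.058 and epsilon at 0.21, and the whole set of members split into 16 higher and 19 lower. The median of all genes was then 0.43 instead of 0.05, and all genes split into 6110 higher and 1932 lower instead of 3782 and 3852. eIF3m (-1.64), eEF2 (-1.46), eIF3a (-1.35) and eIF3b (-1.07) were lower on that scale as well.

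The month comparison and KD of October share the 3 WT libraries of October, so their values are not independent. Side by side, eIF3m had -2.02 in the first and 0.79 in the second, eEF2 -1.84 and 0.52, and eIF3b -1.45 and 0.61. For eEFSec they were 0.31 and -0.50, for eIF4EHP 0.77 and -0.21, and for eIF1 -0.44 and -0.31. A value of WT October that stands apart would enter both with opposite sign, and eIF1 was the member called in both with 1 sign. How many of all genes were called so was not computed.

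Regulators also differed between the months, with 6 of 24 higher and 12 lower in October, beside 32.4% and 33.0% of all genes. raptor, a subunit of the mTor complex 1, had the largest fall (-2.14 ± 0.120) and PPP1R15 the largest rise (1.06 ± 0.0602). Thor rose by 0.60 ± 0.0816, mTor fell by 0.90 ± 0.0652 and pix by 0.89 ± 0.0641. With totals that leave out the 20 top genes the list split into 13 higher and 7 lower. Ribosomal protein genes were lower for 69 of 89 tested and higher for 4 (33.0% and 32.4% of all genes), and 33 and 21 on that scale.

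The last comparison set the libraries labelled KD against those of PARPi in December, between which Parp1 mRNA did not differ by the test (log2 fold change 0.00 ± 0.0765, edgeR adjusted p = 0.988). It called 3 of 48 members, 6.25% beside 5.52% of all genes (2.98% higher and 2.55% lower), so again a share near the background. eIF4EHP was lower in KD (54.7, 57.8 and 60.9 CPM) than in PARPi (73.7, 70.8 and 75.3 CPM), with a log2 fold change of -0.34 ± 0.0656 (edgeR adjusted p = 0.00313). eIF3h was lower by a log2 fold change of -0.24 ± 0.0689 (394 to 408 against 452 to 484 CPM, edgeR adjusted p = 0.0454). eIF4G2 was higher, at 51.4 to 59.97 CPM in KD and 43.5 to 48.8 CPM in PARPi (0.28 ± 0.0765, edgeR adjusted p = 0.0312). The libraries were apart for each of the 3 genes.

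Same-numbered KD and PARPi libraries deviated together, with correlations of 0.64, 0.41 and 0.18, so a fit with the replicate number as a block was made as well. Differently numbered December libraries reached 0.32, so the pairing is uncertain for the third pair. With the block 9 members were called, 8 lower and 1 higher, 18.8% of those tested beside 14.8% of all genes under that fit: eIF1, eEF5, eIF3m, eEF1beta, eIF3e and eIF1A joined the 3 above, with log2 fold changes between -0.22 and -0.17. Without the block, eIF3h and eIF4G2 lost the call when 1 of 5 libraries was left out (KD 1 or 3, PARPi 2 or 3, or WT 2) and with a month term over all 16 libraries, and eIF4EHP kept it in every setting. KD libraries lay below PARPi for 16 of 48 members and above for 1, beside 11.1% and 10.5% of all genes. For eIF1 the unblocked log2 fold change was -0.21 ± 0.0900 (edgeR adjusted p = 0.178). The regulators Thor (0.38 ± 0.0761), larp (0.36 ± 0.0656) and PEK, a kinase of eIF2alpha (0.33 ± 0.0797), were higher in KD than in PARPi.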

How the data were processed

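RNA-seq of 16 S2 cell libraries was used. The authors aligned paired-end reads to BDGP6 with STAR 2.6 and counted them per gene with HTSeq 0.10.0, and deposited raw counts as whole numbers; FastQC 0.10.1 and DESeq2 are also named in the submitters' processing notes. No annotation release, strand setting or rule for multiple matches is stated in the sources used here, so genes that overlap or resemble each other are uncertain. Symbols, positions and exon lengths came from Ensembl release 115 (17599 of 17737 genes matched by FlyBase identifier, and all 52 members). No column was left unmapped.

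Genes with at least 10 counts over the libraries of a fit were scaled by TMM and tested with edgeR 4.0.16 (R 4.3.3, quasi-likelihood test, Benjamini-Hochberg over all genes tested, threshold 0.05). December contrasts came from 1 model of 3 groups over 9 libraries, October from 7 libraries, the interaction of KD and month from 13 and the WT months from 6. CPM used the TMM scale of each month, or of the 6 WT libraries for the months. Levels of different genes were compared as CPM per kb of exon. Related genes were also set side by side as raw reads or CPM, which do not allow for exon length. Alternatives were DESeq2 1.42.0, RLE size factors, library totals without the 20 most abundant genes, no count filter, removal of a trend in exon length (a spline with 5 degrees of freedom), only the groups compared, all 16 libraries with a month term, a replicate block and leaving out each library. Genes chosen for closer description had the 5 largest rises and falls called with a mean of at least 1 CPM. Added to them were eEF1alpha1, eEF1alpha2, eEF2, the cap-binding genes and Parp1. Values in every library were given for some of them, and ranges, means with SD or log2 fold changes for the others. Members and lists were chosen with earlier results of these data known.

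Between replicates chi-square per gene was 7.82 to 142, above sampling noise, and each library was treated as 1 replicate. This spread does not show that libraries came from separate cultures. Same-numbered libraries were checked for shared deviations: correlations were 0.64, 0.41 and 0.18 between KD and PARPi of December, which was taken as pairing. Elsewhere not every same-numbered pair was above 0.1. Of 18 differently numbered December pairs 6 were above 0.1 as well, up to 0.32, so the lowest of the 3 values does not stand out. Tested on simulated counts for KD against WT in December, the fit recovered 100% of 200 changed genes (log2 change of 1) among 11549, with 3.38% of calls false. The changed genes had at least 1 CPM. Recovery of smaller changes, such as the -0.47 of eIF1 in KD of December, was not tested, so a member not called may still have changed. Counting limits cover counting error only. No sequences were used.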

Additional observations from a re-analysis of the deposited data

Results flagged for a closer look

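Within the 4 KD libraries of October, 3 of 49 members had 1 library apart from the other 3 by Dixon's criterion (the gap to the nearest library over the whole range). Chance flags about 1 in 20 by that criterion, so 3 of 49 is close to what chance gives. eEF1beta was at 1062 CPM in replicate 3 and 1125 to 1134 CPM in the others. eIF3a was at 219 CPM in replicate 1 and 196 to 198 CPM in the others, and eIF4A at 2286 CPM in replicate 1 against 2064 to 2097 CPM. The calls of these 3 genes in October held without any single library.

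The difference between the KD changes of both months (December minus October, log2 scale, edgeR's interaction test) passed for 24 members. In the eIF3 scaffold it was -1.15 for eIF3m, -0.64 for eIF3b, -0.64 for eIF3h, -0.63 for eIF3e, -0.62 for eIF3g1, -0.59 for eIF3f1, -0.56 for eIF3a, -0.53 for eIF3l, -0.51 for eIF3c, -0.37 for eIF3k, -0.36 for eIF3i and -0.33 for eIF3d1. Elongation factors had -0.71 (eEF1beta), -0.61 (eEF2), -0.54 (eEF5), -0.45 (eEF1alpha1), -0.41 (eEF1gamma) and, upward, 0.44 (eEFSec). The rest were eIF2alpha at -0.41, eIF4A at -0.38, eIF2A at -0.33, eIF5B at -0.33, eIF4EHP at 0.35 and eIF4G2 at 0.28.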

How the results depend on the processing

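Member counts in KD of October (23 to 30 over all settings and subsets), in the interaction (22 to 27) and between WT months (35 to 44) moved by less than 1.5 times. Of the members called there, 21 of 29, 14 of 24 and 29 of 44 were called in every alternative. In December most calls in the comparisons of KD rested on single libraries. The calls of eIF1 in KD, and of eIF4EHP in PARPi and between KD and PARPi, held without any single library. Members called in KD were between 1 and 6 when 1 library was left out, and eIF3 members between 0 and 3. Members called between KD and PARPi were between 1 and 9, while PARPi gave 1 in each case. Calls over all genes then ran from 4 to 91 in PARPi, 251 to 1212 in KD and 179 to 1608 between KD and PARPi.

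Among other settings, DESeq2 called 8 members and 4 eIF3 members in KD of December and 135 genes in PARPi. Removing the length trend gave 3 members and 1 eIF3 member in KD of December, and 165 genes in PARPi. The count over all genes in KD of December under that setting is not given here, so these member counts have no background. Totals without the 20 top genes gave 0 eIF3 members in KD of December and 3013 genes in the interaction. With no count filter, 293 genes were called in PARPi and 1269 between KD and PARPi. A month term over all 16 libraries gave 1828 genes in KD, 1 member between KD and PARPi, and KD values in which the October libraries took part: eEF1beta 0.085, eEF1gamma 0.22, eIF3b 0.33, eIF3g1 0.059, eIF3l 0.24 and eIF3m 0.27, all reversed. Between WT months, totals without the 20 top genes reversed eIF2Bbeta (0.058), eIF2Bepsilon (0.21), eIF2Bgamma (0.29), eIF2beta (0.029), eIF3j (0.37), eIF3k (0.15), eIF4E1 (0.18) and eIF4G1 (0.092), and the length trend reversed eIF4G1 (0.10).

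With the replicate block, PARPi had 2 members and 496 genes, KD of December 9 members, 5 of eIF3, and 1609 genes, and KD against PARPi 9 members and 1738 genes. The block gave 24 members in October and 25 in the interaction. Their counts over all genes under that fit are not given here, nor is that of KD against PARPi with the month term. Outside KD against PARPi pairing was not assumed, with correlations of same-numbered libraries of -0.06 to 0.25 in December and -0.004 to 0.13 in October. Where a setting changed a count, the cause was not tested. Depth limits the members with at most 60 reads in total.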
